A study of Mus musculus with 4 samples.

Results

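The G1 cyclins, kinases and inhibitors are 10 genes that govern whether a cell leaves quiescence: the D cyclins Ccnd1, Ccnd2 and Ccnd3, the E cyclins Ccne1 and Ccne2, the kinases Cdk4 and Cdk6, the inhibitors Cdkn1a and Cdkn1b, and Rb1. They were taken by name from 21938 protein-coding genes of the GENCODE vM21 annotation of mouse mm10, and all 10 were among the 15505 genes with a mean of at least 5 CPM, counts per 1000000 counts in peaks of the library. Accessibility was measured by scATAC-Seq, in which the Tn5 transposase cuts open chromatin in single nuclei. The value of a gene was the sum of counts in all called peaks that touched its body or the 2 kb upstream, over nuclei with at least 1000 counts, as CPM.

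The nuclei came from hepatocytes of adult male C57BL/6J mice, aged 10 to 12 weeks by the labels and freed from the liver by collagenase perfusion. There were 4 libraries, 1 of undamaged liver (PHx 0 h) and 1 for each of 48, 72 and 96 h following PHx, partial hepatectomy, in which liver lobes are cut out and the remnant regrows. The 0 h and 48 h libraries each came from 1 hepatocyte preparation, that of 48 h from 1 mouse, and no source used here says whether animals were pooled for 72 h and 96 h. With 1 library per time no test was possible, time and library cannot be told apart, and every interval below is an exact 95% Poisson interval that covers counting error alone.

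D cyclins are made in response to growth signals and bind Cdk4 and Cdk6. These complexes phosphorylate the retinoblastoma protein, which then lets go of E2F transcription factors, and E2F targets such as the E cyclins carry the cell into S phase. Cdkn1a (p21) and Cdkn1b (p27) bind cyclin-kinase complexes and restrain them. In liver, cyclin D1 is known as a switch that hepatocytes turn on when they re-enter the cycle after PHx. Open chromatin at a gene is a different quantity from its mRNA.

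The 4 libraries differed in depth. Nuclei numbered 3977, 3892, 4256 and 3224 at 0, 48, 72 and 96 h, with median counts of 26005, 11629, 4841 and 3681.5. Peaks had been called in each library on its own, and they covered 153.6, 179.0, 141.2 and 60.9 Mb, so the counts of a gene depend on how much of it was called. All 10 hepatocyte markers were detected in every library (summed level 4460 to 6075 CPM). Non-parenchymal markers were lower, with sums of 193 to 296 CPM for 10 endothelial genes, 104 to 235 CPM for 8 Kupffer and myeloid genes and 83.1 to 170.2 CPM for 8 stellate and mesenchymal genes. The 4 biliary genes summed to 38.0 to 60.1 CPM, and the 4 lymphoid genes to 3.57, 51.2, 6.997 and 5.89 CPM, of which the B cell gene Cd79a made up 44.5 CPM at 48 h and was at 0 in the other libraries. The part of these cells in the results was not tested. Nuclei with more non-parenchymal than hepatocyte marker counts made up 4.17%, 3.31%, 5.19% and 1.43% of the libraries. Between 833 and 1066 deposited barcodes of a library also occurred in another one.

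The G1 genes differed from 0 h in both directions at 48 h, with log2 ratios from -0.29 for Ccne1 to 0.68 for Ccnd2. At 48 h, 0 of 10 were at least 2-fold above 0 h, where 5.37% of all genes were, and 0 were at least 2-fold below, where 1.86% were. At 72 h 1 gene, Ccnd2, was above (10.1% of all genes) and 1, Cdk4, was below (5.91%). At 96 h 0 were above (5.07%) and Cdk4 alone was below (8.75%). With 10 genes, counts of 0 and 1 are near these shares and are no result about the group. The median log2 ratio of the 10 genes was -0.0048, -0.030 and 0.39 at 48, 72 and 96 h, and that of all genes was -0.035, -0.015 and 0.077. These 3 comparisons share the 0 h library. All ratios are on the log2(CPM + 1) scale.

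**Figure D1:**
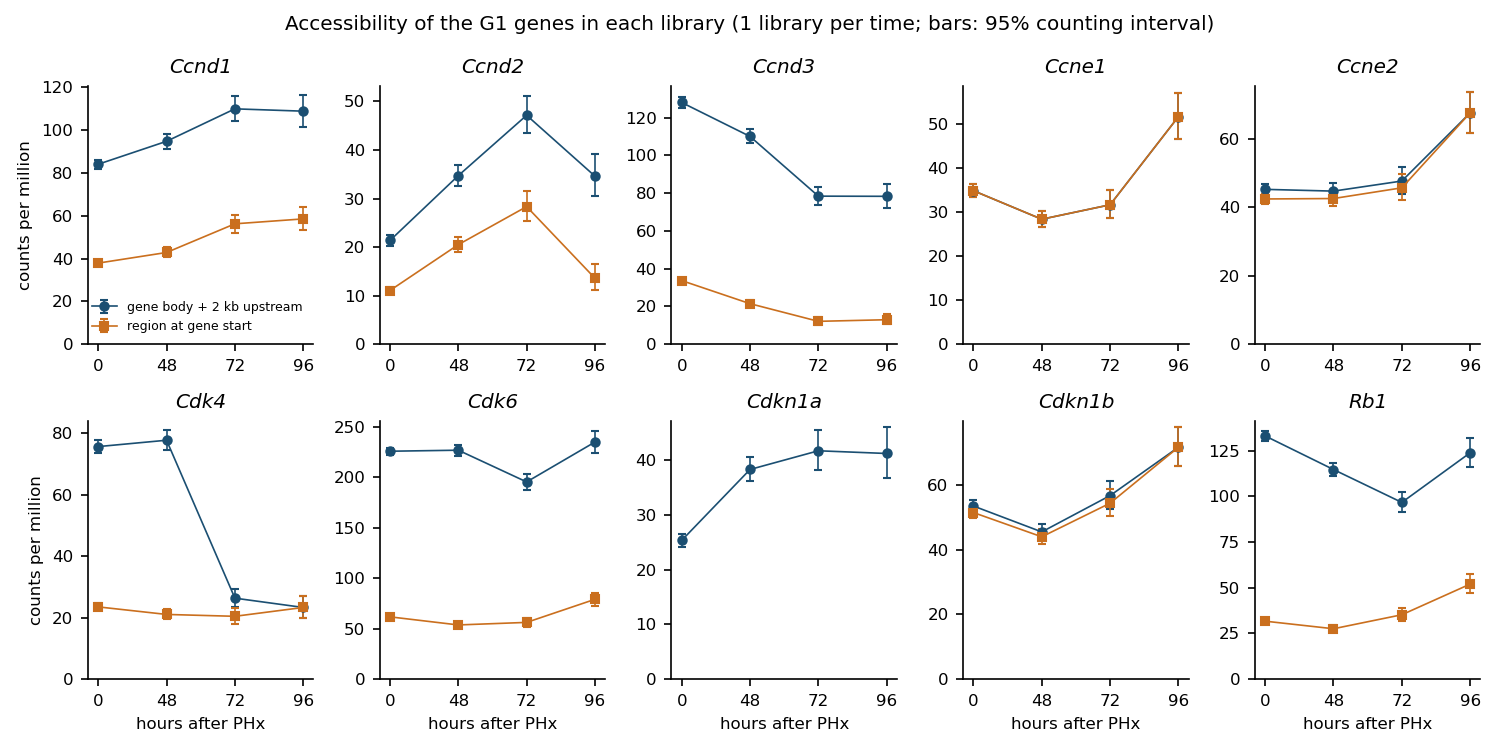
CPM (vertical axis) of the 10 G1 genes in each library, by hours since PHx, over the gene body plus 2 kb upstream (blue circles) and over the whole merged region at the gene start (orange squares), with 95% counting intervals and 1 library per time. Ccnd2 peaks at 47.2 CPM at 72 h and Cdk4 drops to 26.3 CPM there while its start region stays between 20.4 and 23.5 CPM, and Cdkn1a has no called peak at its annotated start.

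Ccnd1, cyclin D1, lies on the minus strand at chr7:144929931-144939925. Its level over the gene and 2 kb upstream was 84.0 CPM (81.9 to 86.2) at 0 h, 94.7 CPM (91.3 to 98.2) at 48 h, 109.9 CPM (104 to 116) at 72 h and 109 CPM (101 to 117) at 96 h. The 3 later libraries were all higher than 0 h, with log2 ratios of 0.17, 0.38 and 0.37 and intervals that did not meet that of 0 h. Covered peak length was 11007, 13660, 11654 and 7576 bp, so the level was higher with 124.1% of the length at 48 h, 105.9% at 72 h and 68.8% at 96 h. At 48 h the direction turned in 2 ways of counting, to a log2 ratio of -0.14 per kb of covered length and -0.050 with counts binarised per nucleus and peak. At 72 h and 96 h the ratios were 0.30 and 0.91 per kb, where the medians of all genes were 0.17 and 1.26, and 0.19 and 0.30 binarised. Between 37.5% and 45.2% of these counts lay in peaks that also touch the window of LTO1, the next gene downstream. In the peaks of Ccnd1 alone the levels were 47.2, 51.9, 68.7 and 66.0 CPM.

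At the Ccnd1 promoter, 1 kb to either side of the start, peaks summed to 15.9, 42.8, 56.2 and 13.9 CPM at 0, 48, 72 and 96 h. Read by themselves these values would put 48 h and 72 h at log2 ratios of 1.38 and 1.76, and with Ccnd2 they made 2 of the 9 promoters with counts at least 2-fold above 0 h at both times, where 4.74% and 7.07% of all 12879 promoters were, and 0 were at 96 h (6.13%). The peak behind them was 3192 bp at 0 h, 6571 bp at 48 h, 6518 bp at 72 h and 1017 bp at 96 h. At 0 h the open region was called as 2 peaks, of which the upstream one, from 4.01 to 1.23 kb before the start, held 22.0 CPM and did not touch the promoter. Peaks of all libraries that touched or overlapped were therefore merged, and over the whole merged region (chr7:144937365-144943935, first coding exon, UTR and upstream sequence) the levels were 37.9 CPM (36.4 to 39.4), 42.8 CPM (40.6 to 45.2), 56.2 CPM (52.1 to 60.6) and 58.5 CPM (53.2 to 64.3). The log2 ratios were then 0.17, 0.56 and 0.61, with 0 h lowest and 48 h between it and the 2 late libraries. Of the other regions of the gene, the largest difference at 48 h was at the 3′ end (chr7:144927057-144932176, UTR, shared with LTO1), at 37.2 CPM against 42.9 CPM. The smallest was in a coding exon (chr7:144933029-144934985), at 8.24 CPM against 8.26 CPM.

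**Figure D2:**
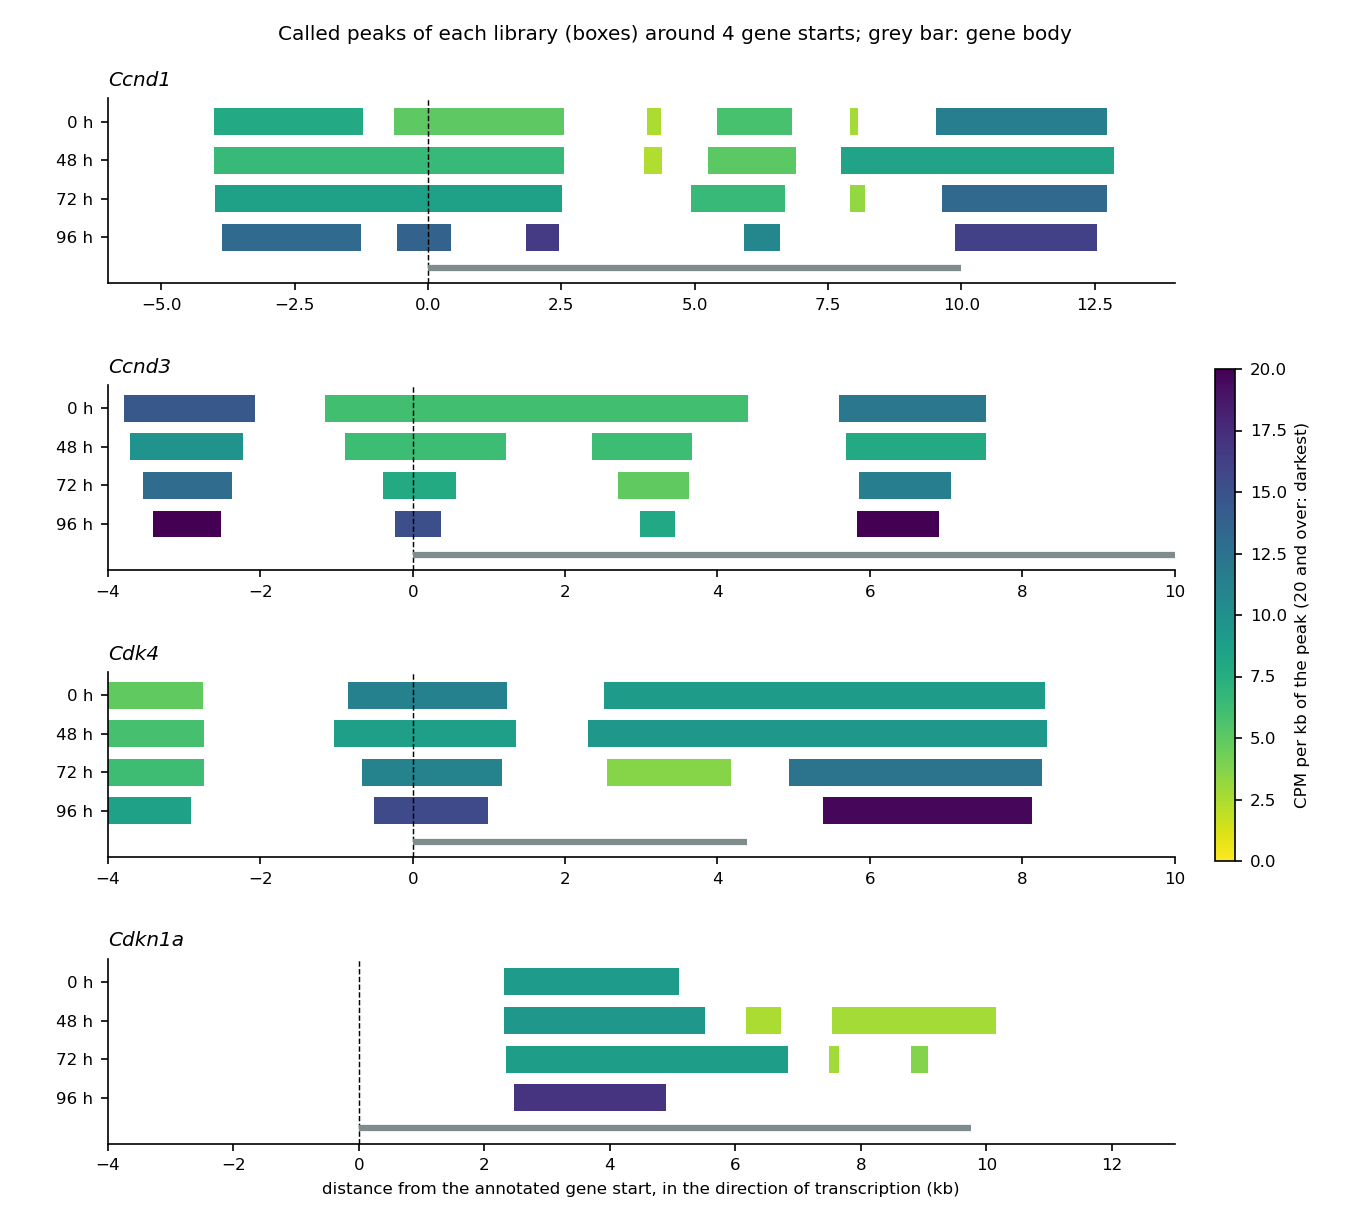
Called peaks of each library (boxes, 1 line per library) around the starts of Ccnd1, Ccnd3, Cdk4 and Cdkn1a, by distance from the annotated start in kb, with colour for CPM per kb of the peak and a grey bar for the gene body. The Ccnd1 start lies in 1 long peak at 48 and 72 h and in shorter ones at 0 and 96 h, the peak past the end of Cdk4 reaches into the gene at 0 and 48 h, and no peak covers the start of Cdkn1a.

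Ccnd2, cyclin D2 (chr6:127125162-127152193, minus strand), had the largest ratio to 0 h of the 10 genes at 48 h. Its level was 21.4 CPM (20.3 to 22.5) at 0 h, 34.7 CPM (32.7 to 36.9) at 48 h, 47.2 CPM (43.4 to 51.1) at 72 h and 34.6 CPM (30.5 to 39.1) at 96 h. The 0 h library was lowest, 72 h highest, and the intervals of 48 h and 96 h overlapped. The log2 ratios of 0.68, 1.11 and 0.67 were above those of 89.3%, 91.6% and 86.1% of all genes. The covered length was 6238, 9254, 9230 and 2813 bp, so at 96 h the CPM was higher over 45.1% of the 0 h length. That is a log2 length ratio of -1.15, where the median of all genes was -1.10. No peak of Ccnd2 was shared with another protein-coding gene, though 2 antisense transcripts overlap it and ATAC-Seq reads carry no strand.

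At 48 h and 72 h most of the difference lay at the start of Ccnd2. Over the merged region at the start (chr6:127148944-127155920, 4 protein-coding transcript starts) the levels were 11.1, 20.5, 28.4 and 13.6 CPM, with peaks of 4458, 6977, 6910 and 1460 bp. The 72 h value was highest and the 96 h interval (11.1 to 16.5) overlapped that of 0 h (10.3 to 11.9). The promoter value of 96 h, 0.268 CPM, rests on a called length of 27 bp and 4 counts. The whole start region held 203 counts in that library. An intronic region, chr6:127141809-127143075, was called in every library with a length near that of 0 h (neither more than 25% longer than the other), and its levels were 5.06, 7.16, 10.4 and 13.99 CPM. Over all regions of near-equal length, 2 at 48 h, 2 at 72 h and at 96 h this intronic one alone, the log2 ratio of Ccnd2 was 0.36, 0.74 and 1.31, against medians of -0.13, 0.11 and 0.90 over all genes with such regions. No region of Ccnd2 was lower at 48 h than at 0 h.

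The difference in Ccnd2 moved with the depth of the nuclei. In nuclei with more than 10000 counts the levels were 20.6, 33.1, 47.4 and 36.5 CPM, near those of the whole libraries. In nuclei with 3000 to 10000 counts they were 44.4 CPM (34.9 to 55.8), 41.5 CPM (35.4 to 48.5), 46.3 CPM (41.5 to 51.6) and 32.7 CPM (27.7 to 38.5), with log2 ratios of -0.10, 0.06 and -0.43. All 4 intervals overlapped at least 1 other, and 0 h was no longer lowest. Nuclei with more non-parenchymal than hepatocyte marker counts had a Ccnd2 level of 119.97 CPM (90.9 to 155.4) at 0 h, where the other nuclei had 20.7 CPM. Without such nuclei the log2 ratios were 0.70, 1.15 and 0.71 over all depths. In nuclei of 3000 to 10000 counts without them, a setting added after the data had been seen, the levels were 31.1, 39.4, 46.6 and 32.8 CPM and the log2 ratios 0.33, 0.57 and 0.07. The summed level of the 8 stellate and mesenchymal markers was 83.1, 120.9, 170.2 and 143.0 CPM, with 6, 7 and 5 of the 8 genes above 0 h at the later times. The endothelial list summed to 252.8, 252.2, 295.5 and 192.8 CPM and the Kupffer and myeloid list to 167.7, 234.5, 207.4 and 104.4 CPM, both lower at 96 h than at 0 h. Of the stellate and mesenchymal genes, Des and Dcn were both at 0 at 0 h and 96 h, Dcn at 48 h and Des at 72 h. The part of these cell types in the Ccnd2 result was not tested.

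**Figure D3:**
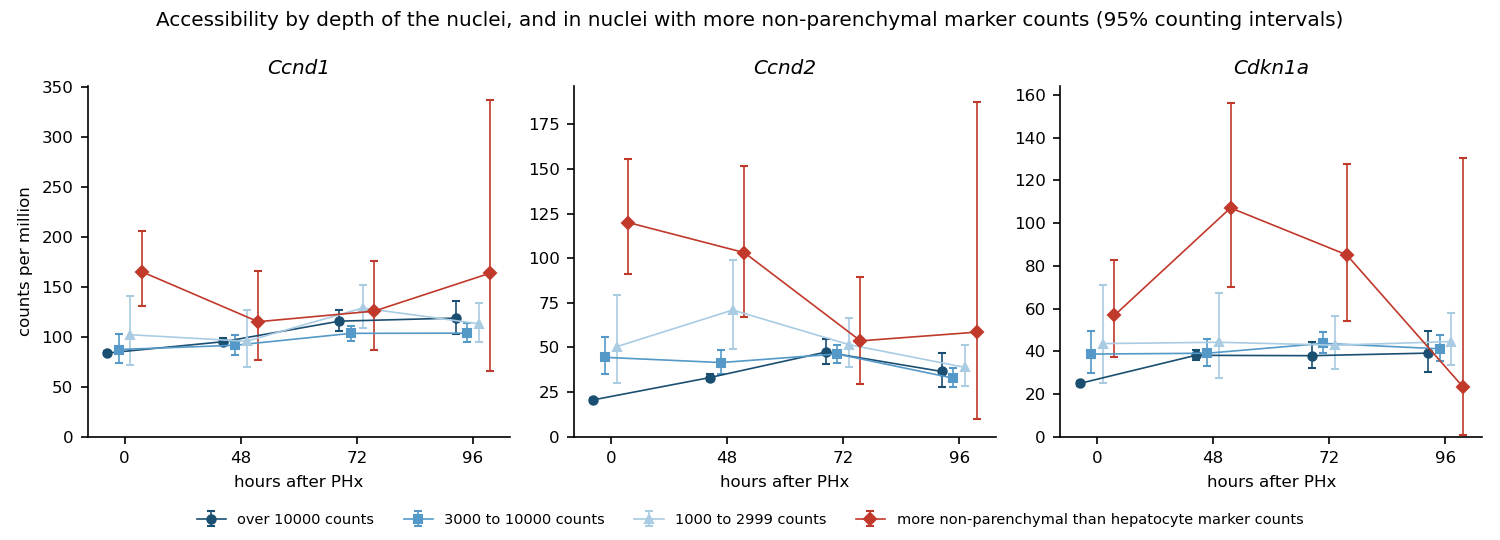
CPM of Ccnd1, Ccnd2 and Cdkn1a at 0, 48, 72 and 96 h in 3 ranges of counts per nucleus (blue shades) and in nuclei with more non-parenchymal than hepatocyte marker counts (red), with 95% counting intervals. For Ccnd2 at 0 h the deepest nuclei had 20.6 CPM and those of 3000 to 10000 counts 44.4 CPM, and at 72 h the same ranges had 47.4 and 46.3 CPM.

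Ccnd3, cyclin D3 (chr17:47505051-47599691, plus strand), was the D cyclin with a lower sum of counts after PHx, while per kb of called peak it was not lower at 72 h and 96 h. Its level was 128.0 CPM (125.3 to 130.7) at 0 h, 110.0 CPM (106.4 to 113.8) at 48 h, 78.4 CPM (73.6 to 83.5) at 72 h and 78.3 CPM (72.1 to 85.0) at 96 h. The log2 ratios were -0.22, -0.70 and -0.70, all 3 intervals lay below that of 0 h, and those of 72 h and 96 h overlapped. The covered length was 23872, 24364, 13001 and 5153 bp. The level was therefore lower at 48 h at a nearly equal length (102.1%), and at 72 h and 96 h it was lower over 54.5% and 21.6% of the length. Per kb of covered length the log2 ratios were -0.25, 0.17 and 1.5, where the medians of all genes were -0.21, 0.17 and 1.26. Peaks that also touch the window of another protein-coding gene held 57.9%, 48.6%, 5.78% and 0% of the counts. In peaks of Ccnd3 alone the levels were 53.9, 56.6, 73.9 and 78.3 CPM, which is the opposite order. A region that counted as shared at 0 h counted as the gene's own where a shorter call no longer touched the neighbour.

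Ccnd3 has 15 protein-coding transcript starts, which lie in 2 groups whose RefSeq starts are 88416 bp apart. The upstream group is in the region chr17:47503899-47509446, which holds 8 of the starts. The levels there were 33.7, 21.5, 12.1 and 12.99 CPM over peaks of 5548, 3428, 1898 and 1071 bp. The downstream group of 7 is in chr17:47592391-47601349, where the levels were 40.4, 40.2, 33.0 and 30.3 CPM over 8601, 8959, 5659 and 1831 bp. The upstream region was thus at log2 ratios of -0.63, -1.40 and -1.31 and the downstream one at -0.0056, -0.28 and -0.41. In CPM per kb of called peak the upstream region was at 6.08, 6.27, 6.39 and 12.1, and all genes had medians of 9.73, 8.12, 10.2 and 18.6 at their starts, so the called width was lower after PHx while the density within it was not. The edge of the downstream region touches Bysl, and the edge of the upstream one touches the 2 kb before Taf8, whose transcripts run the other way. On the promoter alone Ccnd3 was at 33.7, 13.2, 7.56 and 9.31 CPM, the 1 gene at least 2-fold below 0 h at 48 h and at 72 h (2.53% and 7.94% of promoters) and, with Ccnd2, 1 of 2 at 96 h (9.85%). An intronic region (chr17:47510650-47512577) with peaks of 1928 and 1834 bp at 0 h and 48 h had 23.2 and 14.4 CPM, a log2 ratio of -0.65 at nearly equal length, and 13.95 and 21.8 CPM over 1207 and 1069 bp at 72 h and 96 h (-0.70 and -0.089). Over all 7 regions of Ccnd3 with near-equal length at 48 h the log2 ratio was -0.16, against a median of -0.13 over all genes with such regions. The region with the largest gain at 48 h, chr17:47571442-47572294 in an exon, had 0.718 CPM at 0 h and 2.50 CPM at 48 h.

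The promoter sequences of both Ccnd3 starts are shown because the chromatin around them differed. They come from RefSeq on GRCm38.p6, plus strand, chr17:47504801-47505100 and chr17:47593217-47593516, each with 250 bases before and 50 after the start. Capitals mark the GC box (GGGCGG or its complement CCGCCC) and the CCAAT box (CCAAT or ATTGG), searched on both strands.
Ccnd3 upstream start: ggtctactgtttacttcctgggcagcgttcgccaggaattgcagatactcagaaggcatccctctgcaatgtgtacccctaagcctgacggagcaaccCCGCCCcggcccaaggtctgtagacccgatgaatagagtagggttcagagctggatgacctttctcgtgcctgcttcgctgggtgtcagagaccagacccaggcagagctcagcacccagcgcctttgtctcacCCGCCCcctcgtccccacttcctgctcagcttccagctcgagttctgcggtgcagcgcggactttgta
Ccnd3 downstream start: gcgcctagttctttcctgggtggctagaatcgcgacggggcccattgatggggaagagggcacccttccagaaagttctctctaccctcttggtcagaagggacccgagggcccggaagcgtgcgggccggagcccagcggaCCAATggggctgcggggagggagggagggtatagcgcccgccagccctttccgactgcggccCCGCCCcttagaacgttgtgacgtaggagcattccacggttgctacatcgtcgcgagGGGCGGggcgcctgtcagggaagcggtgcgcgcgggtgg
The upstream sequence has 59.3% G and C, 15 CpG and 2 GC boxes, and the downstream one 67.0%, 28 CpG, 2 GC boxes and 1 CCAAT box. Of 32851 mouse promoters of this length, 35.7% hold a GC box and 37.4% a CCAAT box, and the median has 7 CpG and 52.7% G and C. The annotated start of RefSeq and GENCODE is the same base for the upstream promoter. In all, 8 promoters of 6 of the 10 genes were matched by symbol.

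Cdk4, a kinase partner of the D cyclins, lies at chr10:127063534-127067920 on the plus strand. Its level over the gene and 2 kb upstream was 75.6 CPM (73.6 to 77.7) at 0 h, 77.7 CPM (74.6 to 80.9) at 48 h, 26.3 CPM (23.5 to 29.4) at 72 h and 23.3 CPM (19.97 to 27.0) at 96 h. The 2 late libraries were far below the 2 early ones, with log2 ratios of -1.49 and -1.66. The gap lay in where a neighbouring peak ended. The region past the 3′ end, chr10:127065836-127071863, which holds the start of Tspan31, was called as 1 peak of 5788 bp at 0 h and 6028 bp at 48 h that reached back into Cdk4. At 72 h it was called as 2 peaks, of which the larger, 4.94 to 8.26 kb from the Cdk4 start, no longer touched the gene, and at 96 h as 1 peak from 5.39 to 8.13 kb. Counted whole, that region had 52.2, 56.7, 47.1 and 53.8 CPM, and Cdk4 with whole merged regions, an alternative added after the data had been seen, had log2 ratios of 0.04, -0.16 and 0.03. With merged regions 0 of the 10 genes were at least 2-fold below 0 h at any time, against 0.56%, 2.6% and 3.93% of all genes.

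The Cdk4 start itself differed little between libraries. The region chr10:127062502-127064892, with all 4 protein-coding starts, had 23.5 CPM (22.4 to 24.7), 21.0 CPM (19.4 to 22.7), 20.4 CPM (18.0 to 23.1) and 23.3 CPM (19.97 to 27.0). The interval of every later library overlapped that of 0 h. The called lengths were 2079, 2391, 1845 and 1500 bp. The RefSeq promoter of Cdk4 (GRCm38.p6, chr10:127063285-127063584, plus strand) is shown because it lies inside this region, with the GC boxes in capitals.
Cdk4: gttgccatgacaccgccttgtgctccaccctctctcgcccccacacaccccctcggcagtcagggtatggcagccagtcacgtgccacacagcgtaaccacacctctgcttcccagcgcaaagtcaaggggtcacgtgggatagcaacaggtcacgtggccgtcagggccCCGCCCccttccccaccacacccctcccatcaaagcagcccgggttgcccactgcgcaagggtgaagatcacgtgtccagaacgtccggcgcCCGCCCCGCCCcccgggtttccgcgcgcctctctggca
It has 67.0% G and C, 22 CpG and 3 GC boxes, of which the last 2 share 1 base.

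Cdk6, the other kinase partner, spans 189524 bp (chr5:3341485-3531008, plus strand) and has 36 merged regions, of which 15 were called in every library. Its level was 226 CPM (222 to 229) at 0 h, 227 CPM (221 to 232) at 48 h, 195 CPM (188 to 203) at 72 h and 235 CPM (224 to 246) at 96 h. Only the 72 h interval lay apart from that of 0 h, with a log2 ratio of -0.21 over 71.6% of the length. The start region (chr5:3340559-3345693, 5 coding starts) had 61.6, 53.6, 56.1 and 79.0 CPM, with near-equal called lengths in all libraries. The log2 ratios there were -0.20, -0.13 and 0.35, and the medians over all start regions were -0.19, -0.096 and 0.22. Inside the gene, the largest difference upward at 48 h was at chr5:3385136-3387632 (intron), at 11.2 CPM against 13.6 CPM. The largest downward was at chr5:3490622-3492820 (intron), centred 150236 bp from the start, at 26.0 CPM against 17.9 CPM. At 96 h that region had 27.7 CPM over a shorter call, 1354 bp against 2199 bp at 0 h. Both had near-equal called lengths at 48 h.

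Cdkn1a encodes p21, an inhibitor of cyclin-kinase complexes and a target of p53. The gene lies at chr17:29090976-29100727 on the plus strand. Its level was 25.4 CPM (24.2 to 26.6) at 0 h, 38.3 CPM (36.2 to 40.6) at 48 h, 41.7 CPM (38.2 to 45.5) at 72 h and 41.2 CPM (36.8 to 46.1) at 96 h. The 3 later libraries lay above 0 h and overlapped each other, with log2 ratios of 0.58, 0.70 and 0.68 that were above those of 86.6%, 83.8% and 86.5% of all genes. The covered length was 2788, 6375, 4932 and 2429 bp, which is 228.7%, 176.9% and 87.1% of the 0 h length at the later times. Per kb of covered length the direction turned at 48 h and 72 h, with log2 ratios of -0.60, -0.10 and 0.90, all 3 below the medians of all genes (-0.21, 0.17 and 1.26). At 96 h the higher level lay in a region of near-equal length. The median over all 2934 genes with such regions at 96 h was 0.90, above the 0.68 of Cdkn1a.

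No library had a called peak within 1 kb of the annotated start of Cdkn1a. The open region began further in, at chr17:29093287-29097818, and holds 2 of the 4 protein-coding starts. It had 25.4, 31.3, 40.3 and 41.2 CPM. A further region over coding exon and UTR, chr17:29098470-29101131, had 7.03 CPM over 2608 bp at 48 h and 1.46 CPM over 430 bp at 72 h. At 0 h and 96 h no peak was called there, which does not say that no reads fell there. As for Ccnd2, the difference moved with the depth of the nuclei. In nuclei of 3000 to 10000 counts the levels of Cdkn1a were 38.7 CPM (29.8 to 49.4), 39.1 CPM (33.1 to 45.8), 43.7 CPM (38.99 to 48.8) and 41.2 CPM (35.5 to 47.5), and all 4 intervals overlapped. In nuclei over 10000 counts they were 24.9, 38.1, 37.9 and 39.1 CPM.

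The promoter sequences of the 2 RefSeq starts of Cdkn1a are shown because a called peak covered only the second. They are chr17:29090729-29091028 and chr17:29093519-29093818 (GRCm38.p6, plus strand), with GC boxes in capitals.
Cdkn1a annotated start: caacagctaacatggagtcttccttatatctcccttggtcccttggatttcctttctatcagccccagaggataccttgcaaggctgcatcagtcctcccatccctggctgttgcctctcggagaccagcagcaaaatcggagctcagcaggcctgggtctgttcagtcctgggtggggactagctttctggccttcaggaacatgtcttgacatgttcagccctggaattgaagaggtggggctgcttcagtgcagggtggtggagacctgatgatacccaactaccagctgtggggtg
Cdkn1a inner start: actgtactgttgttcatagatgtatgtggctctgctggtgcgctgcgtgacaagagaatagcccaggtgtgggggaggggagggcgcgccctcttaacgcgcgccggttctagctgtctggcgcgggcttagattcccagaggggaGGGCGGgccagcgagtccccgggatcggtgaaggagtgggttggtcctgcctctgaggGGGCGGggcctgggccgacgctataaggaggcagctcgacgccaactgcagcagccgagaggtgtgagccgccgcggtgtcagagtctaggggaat
The first is 54.7% G and C with 2 CpG and holds none of the motifs searched. The second, 2793 bases further along, is 64.7% G and C with 23 CpG and 2 GC boxes.

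Cdkn1b, which encodes p27 (chr6:134920401-134925513, plus strand), was lower than 0 h at 48 h and higher at 96 h. Its level was 53.5 CPM (51.8 to 55.3) at 0 h, 45.5 CPM (43.2 to 48.0) at 48 h, 56.7 CPM (52.6 to 61.1) at 72 h and 71.7 CPM (65.8 to 78.0) at 96 h. The 72 h interval overlapped that of 0 h and those of 48 h and 96 h did not, with log2 ratios of -0.23, 0.08 and 0.42. At least 95.9% of the counts of every library lay in the start region, chr6:134918730-134922229. There the levels were 51.5, 44.0, 54.4 and 71.7 CPM over 3299, 3450, 3338 and 2440 bp. This start region was at log2 ratios of -0.22, 0.08 and 0.47, and the medians over all start regions were -0.19, -0.096 and 0.22. The largest gain at 48 h was in the UTR at chr6:134925344-134925973, at 1.04 CPM against 1.5 CPM.

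Rb1, the retinoblastoma gene that D cyclin kinases act on, lies at chr14:73183673-73325822 on the minus strand. Its level over the whole window was 133 CPM (130 to 136) at 0 h, 115 CPM (111 to 119) at 48 h, 96.7 CPM (91.3 to 102.4) at 72 h and 124 CPM (116 to 132) at 96 h, lowest at 72 h. The log2 ratios were -0.21, -0.46 and -0.10, and per kb of covered length they were -0.11, 0.25 and 1.29. Part of this is not Rb1: the window also holds Lpar6, and 29.1% of the 0 h counts lay in peaks shared with it. In the peaks of Rb1 alone the levels were 94.4, 85.6, 74.4 and 98.6 CPM, so that 96 h was above 0 h. The region with the largest loss in CPM at 48 h was the one at the Lpar6 start (chr14:73237321-73240657), with 31.3, 25.5, 19.8 and 25.3 CPM. The start of Rb1 itself, chr14:73324589-73327169, had 31.7 CPM (30.4 to 33.1), 27.6 CPM (25.7 to 29.5), 35.2 CPM (31.996 to 38.7) and 52.02 CPM (47.0 to 57.5). It was lowest at 48 h and highest at 96 h, with called lengths of 2581, 2425, 2154 and 1816 bp. This start region was at log2 ratios of -0.20, 0.15 and 0.70, and the medians over all start regions were -0.19, -0.096 and 0.22. The largest gain at 48 h was an intronic region (chr14:73313386-73313723) that was called in that library alone, at 1.097 CPM.

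Ccne1, cyclin E1 and a partner of Cdk2, lies on the minus strand at chr7:38097984-38107534. All of its counts lay in 1 region at the start (chr7:38106198-38109015). They gave 34.9 CPM (33.5 to 36.3), 28.4 CPM (26.5 to 30.3), 31.7 CPM (28.6 to 34.97) and 51.7 CPM (46.7 to 57.1) at 0, 48, 72 and 96 h. The 48 h library was lower than 0 h at 123.2% of the peak length, 72 h overlapped 0 h, and 96 h was higher at 73.0% of the length, with log2 ratios of -0.29, -0.13 and 0.55. Over all start regions the medians were -0.19, -0.096 and 0.22. The RefSeq promoter (GRCm38.p6, chr7:38107441-38107740, minus strand) is shown as the one with the most CpG of those matched, with GC boxes in capitals.
Ccne1: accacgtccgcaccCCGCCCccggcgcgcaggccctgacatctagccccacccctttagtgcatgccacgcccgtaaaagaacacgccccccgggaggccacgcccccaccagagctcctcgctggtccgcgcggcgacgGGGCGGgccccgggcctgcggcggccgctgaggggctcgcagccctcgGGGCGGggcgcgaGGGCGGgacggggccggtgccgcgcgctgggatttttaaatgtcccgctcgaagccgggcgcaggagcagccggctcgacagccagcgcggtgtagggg
It is 76.0% G and C with 41 CpG and 4 GC boxes. The letters searched for E2F (TTTCGCGC, TTTGGCGC), CRE (TGACGTCA) and AP-1 (TGAGTCA or TGACTCA) were in none of the 8 promoters matched, and are in 0.813%, 1.79% and 5.2% of all promoters. TATAAA, in 13.6% of all promoters, was in that of Cdk6 alone.

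Ccne2, cyclin E2 (chr4:11191351-11204779, plus strand), stood apart from 0 h at 96 h. Its level was 45.2 CPM (43.6 to 46.8), 44.7 CPM (42.3 to 47.1), 47.6 CPM (43.8 to 51.6) and 67.5 CPM (61.7 to 73.6). The intervals of 48 h and 72 h overlapped that of 0 h. The start region (chr4:11189915-11193274) had 42.4, 42.5, 45.6 and 67.5 CPM over 2948, 3360, 2456 and 2180 bp. A second region in a coding exon (chr4:11195048-11195836) had 2.80, 2.16 and 1.98 CPM and no called peak at 96 h. The start regions of Ccnd1, Ccne1, Ccne2, Cdk6, Cdkn1b and Rb1, 6 of 9, were highest at 96 h, with log2 ratios of 0.35 to 0.70. Of all 12970 start regions 55.3% were highest there too, with a median of 0.22 and an upper quartile of 0.54.

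Levels between genes were compared per kb of called peak at the gene start. At 0 h the order was Cdkn1b (15.6 CPM per kb), Ccne1 (15.2), Ccne2 (14.4), Cdk6 (13.1), Rb1 (12.3), Cdk4 (11.3), Ccnd1 (6.34), Ccnd3 (6.08) and Ccnd2 (2.48). Neighbours with overlapping intervals were Cdkn1b and Ccne1, Ccne1 and Ccne2, Cdk6 and Rb1, Rb1 and Cdk4, and Ccnd1 and Ccnd3. The 3 D cyclins held the last 3 places in each of the 4 libraries, and Ccnd2 was last in each. Ccnd2 was above 1.28% of 12961 genes at 0 h, 0.771% at 48 h, 1.38% at 72 h and 3.99% at 96 h. Ccnd1 was above 18.9%, 27.8%, 34.4% and 22.8% of genes, and Ccnd3 above 17.0%, 24.4%, 13.2% and 14.2%. The other 6 starts were above 57.9% to 93.3% of genes in every library, except Cdk4 at 96 h with 32.5%. At 96 h the interval of Cdk4 (13.3 to 18.0) overlapped those of Ccnd1 (12.5 to 15.2) and Ccnd3 (9.84 to 14.8). The start regions of the D cyclins were also called long at 0 h, 4458 to 5976 bp against 2079 to 4693 bp for the others, and a density over a longer call takes in more of the flanks. At 96 h the called lengths were 4239 bp for Ccnd1, the longest of the 9, and 1460 and 1071 bp for Ccnd2 and Ccnd3, the shortest. The part of called length in the order was not tested.

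**Figure D4:**
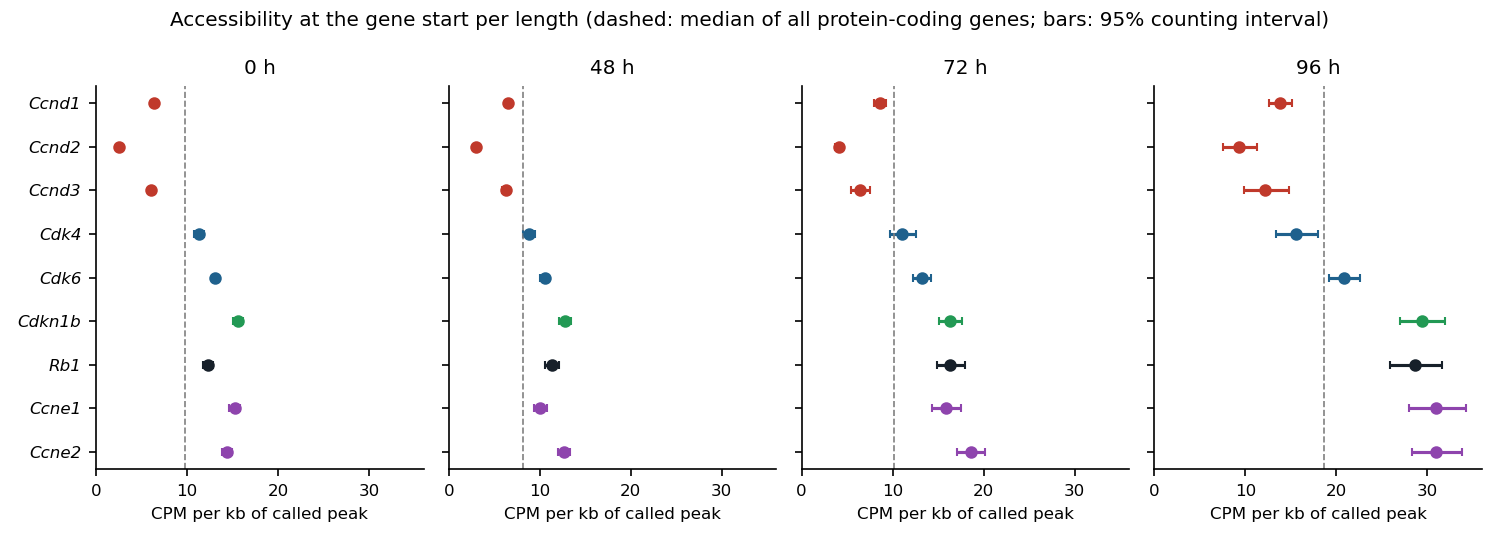
CPM per kb of called peak (horizontal axis) in the merged region at the start of 9 G1 genes in each library, with 95% counting intervals, colours by role and a dashed line at the median of all protein-coding genes. Ccnd1, Ccnd2 and Ccnd3 (red) lie left of the dashed line in all 4 panels, and Ccnd2 is lowest in each.

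Called peak length moved with the counts in all genes. Across genes, which are not independent replicates and share the same libraries, Pearson's r between the log2 ratio of counts and that of covered length was 0.87 at 48 h (15476 genes), 0.91 at 72 h (15469) and 0.84 at 96 h (15333). Both ratios had the same sign in 7, 8 and 3 of the 10 G1 genes. The share over all genes was not computed, so these counts are no result about the group. At 96 h the median log2 ratio of all genes was -1.10 for covered length and 0.077 for counts. Per kb of covered length, all genes shifted by a median of -0.21, 0.17 and 1.26, and the 10 genes had medians of -0.19, 0.21 and 1.23, so on that scale the group stood within 0.05 of all genes at each time. Of the 10 genes 7, 6 and 5 were above those medians of all genes and 3, 4 and 5 below. Above at all 3 times were Ccnd2 (0.13, 0.58 and 1.84), Ccne2 (-0.18, 0.38 and 1.33), Cdk6 (-0.19, 0.27 and 1.28) and Rb1 (-0.11, 0.25 and 1.29). Below at all 3 were Cdkn1a (-0.60, -0.10 and 0.90) and Ccne1 (-0.60, 0.06 and 1.02). Cdk4 (-0.35 and 0.69) and Cdkn1b (0.15 and 1.18) were below at 72 and 96 h, Ccnd1 at 96 h (0.91) and Ccnd3 at 48 h (-0.25). Of 96 merged regions over the 10 genes, 42, 15 and 4 had a length near that of 0 h at 48, 72 and 96 h.

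**Figure D5:**
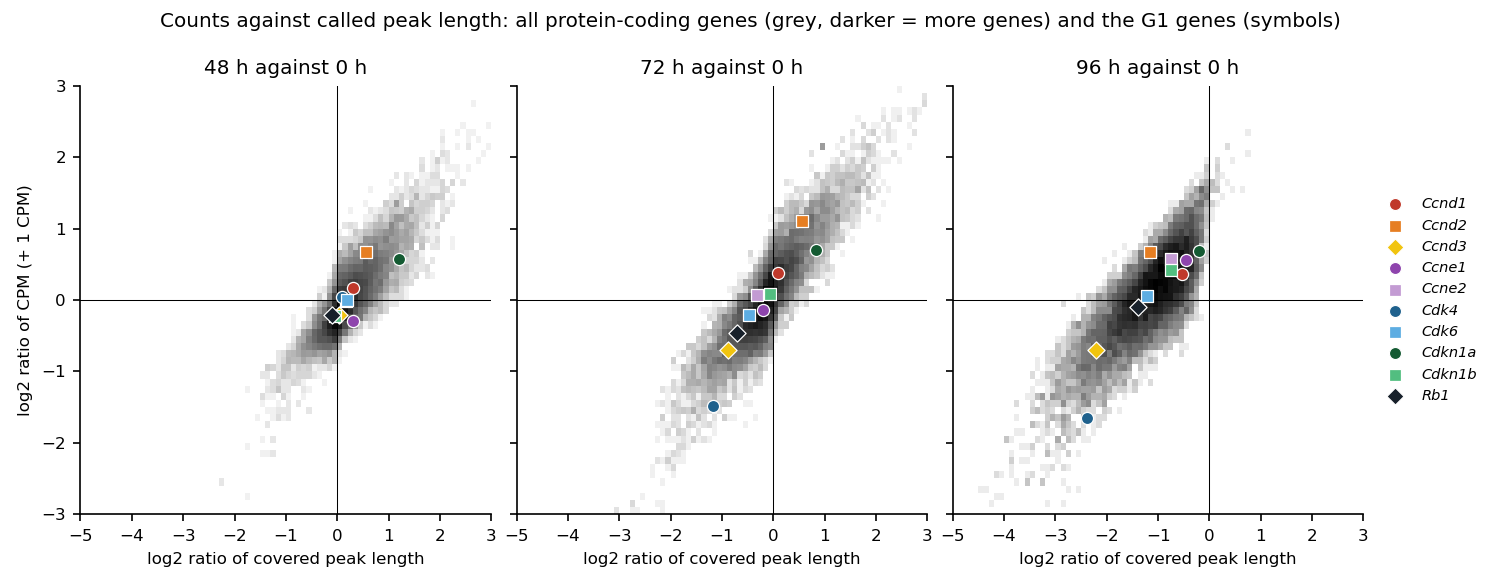
Log2 ratio of CPM (vertical axis) against log2 ratio of covered peak length (horizontal axis) for 48, 72 and 96 h against 0 h, with all protein-coding genes in grey and the 10 G1 genes as symbols. Cdk4 lies at the lower left at 72 and 96 h, with 44.2% and 19.1% of its 0 h length, and Ccnd2 at 96 h lies above 0 with 45.1% of its length.

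Among 26 other genes of the G1/S transition (E2F factors and their partners, pocket proteins, further inhibitors, Cdk2 and its activators, Myc and ubiquitin ligase parts), all 26 passed the minimum. At 48 h and 72 h 0 were at least 2-fold above or below 0 h, beside the shares of all genes given above, and at 96 h 1 was above and 0 below. Their median log2 ratios were -0.028, 0.057 and 0.31. The largest ratio at 48 h was that of E2f7, a repressor of the E2F family, at 13.8, 19.2, 26.6 and 32.7 CPM. E2f7 was also the 1 gene past 2-fold at 96 h (log2 ratio 1.18), over 1190 bp of peaks against 1552 bp at 0 h. Mnat1, which helps assemble the Cdk-activating kinase, was at 19.5, 24.5, 31.0 and 24.6 CPM. The lowest ratios at 48 h were those of Skp2, which marks p27 for degradation (102.7, 74.3, 68.8 and 85.3 CPM), and its cofactor Cks1b (78.6, 57.9, 46.8 and 52.9 CPM). Skp2 and Cks1b were at log2 ratios of -0.46 and -0.44. Covered length at 48 h was at log2 ratios of 0.58 for E2f7 and 0.38 for Mnat1, beside 0.45 and 0.32 for their counts. For Skp2 and Cks1b the length was at -0.12 and -0.55. The called length of E2f7, Mnat1 and Cks1b thus moved further than their counts.

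The course of Ccnd2 was most like those of Dchs2, Syn2 and Vill, by Euclidean distance over the 3 log2 ratios among 11505 genes with a mean of at least 20 CPM. The distances were 0.042, 0.064 and 0.064. Their log2 ratios at 48, 72 and 96 h were 0.65, 1.13 and 0.67 for Dchs2, 0.67, 1.06 and 0.72 for Syn2, and 0.72, 1.15 and 0.66 for Vill, against 0.68, 1.11 and 0.67 for Ccnd2. At 0 h Dchs2 was at 15.3 CPM, Syn2 at 19.7 CPM and Vill at 14.8 CPM. All 3 had longer covered length at 48 and 72 h and shorter at 96 h than at 0 h, as Ccnd2 had.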

How the data were processed

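The deposited matrices hold whole-number counts of transposase cut sites per peak and barcode. By the submitters' notes and the file headers, the authors ran Cell Ranger ATAC 1.1.0 on mm10, calling peaks in each of the 4 libraries separately. The deposited peak and barcode lists name the rows and columns and carry no score. No source used here gives the study's cutoffs for nuclei.

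Counts of barcodes with at least 1000 counts were summed per peak and over peaks that touch a gene body or the 2 kb upstream (GENCODE vM21), and divided by the sum over all peaks (CPM, counts per 1000000). No doublet caller was run. Exact 95% Poisson intervals were computed on the count divided by 2, since most fragments count at both ends. Ratios used a pseudocount of 1 CPM and genes with a mean of at least 5 CPM. No test was made, with 1 library per time. A count of 3, as a lower limit, is worth 0.0220, 0.0484, 0.121 and 0.201 CPM at 0, 48, 72 and 96 h. Peaks of the 4 libraries were merged into 200890 regions.

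All 10 genes are described. Further names follow a rule: the start region and the regions with the largest gain and loss in CPM at 48 h, the 3 genes nearest in course to the gene with the largest ratio at 48 h, and the 2 highest and 2 lowest other G1/S genes there. Regions named beyond these (an intronic one of Ccnd2, the downstream start of Ccnd3 and an intronic one of Ccnd3) were chosen after their values were seen. The genes, lists and markers were chosen with earlier results of these data known. Summation was tested on simulated data. The alternatives were other nuclei, scalings, windows, pseudocounts and length rules. Python 3.11.15, numpy 2.4.6, scipy 1.17.1, pandas 2.3.3 and matplotlib 3.10.9 were used, and promoter sequences came from RefSeq (GRCm38.p6).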

Additional observations from a re-analysis of the deposited data

How the results depend on the processing

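Of 240 counts and medians recomputed under 17 alternatives, 192 stayed within 1.5 times (counts) or within counting error (medians) and 48 did not. The window count at least 2-fold above 0 h at 72 h went from 1 to 0 in nuclei of 3000 to 10000 counts (with and without non-parenchymal nuclei), with binarised counts, per kb, over near-equal lengths and with a pseudocount of 5 CPM. At 96 h it went from 0 to 7 per kb, where 72.0% of all genes were called, and to 1 of 3 over near-equal lengths, where 41.1% were. The window count below 0 h went from 1 to 0 at 72 and 96 h per kb, over near-equal lengths and with whole merged regions, since in the last the peak past Cdk4 is counted in every library, and to 2 at 96 h with peaks of at least the median count (14.7% of all genes). The promoter count above 0 h was 2 at 48 and 72 h. At 48 h it was 0 in nuclei of 3000 to 10000 counts, binarised, per kb, over near-equal lengths and with merged regions, and 1 without the 5% of nuclei with the most counts, with a pseudocount of 5 CPM and in nuclei of 3000 to 10000 counts without non-parenchymal ones (4.74%, 2.26% and 5.21% of all promoters). At 72 h it was 1 in nuclei of 3000 to 10000 counts (with and without those) and with merged regions (5.39%, 6.04% and 6.68%), and 0 per kb and over near-equal lengths. At 96 h it went from 0 to 6 of 9 per kb, where 52.5% of all promoters were called. The promoter count below 0 h (1, 1 and 2) was 0 per kb and over near-equal lengths at all 3 times, 0 at 48 h and 1 at 96 h both with promoters of all transcripts (9.31% of promoters at 96 h) and with merged regions (2.52%). Over near-equal lengths the promoters of Ccnd1, Ccnd2 and Ccnd3 and, at 96 h, the window of Cdk4 have no value, so the counts of 0 given for that setting were fixed by the missing genes, except for windows at 72 h.

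The window medians of -0.0048, -0.030 and 0.39 became -0.18, -0.17 and 0.024 in nuclei of 3000 to 10000 counts, -0.19, 0.21 and 1.23 per kb, -0.14 at 48 h and 0.68 at 96 h over near-equal lengths (9 and 3 genes), and 0.15 at 96 h in nuclei of 3000 to 10000 counts without non-parenchymal ones. Of single genes, 698 values stayed within counting error, 182 moved and 10 past 2-fold changed sign. Those were the Ccnd2 promoter at 48 and 72 h in nuclei of 3000 to 10000 counts (-0.092 and -0.054), the Ccnd2 promoter at 96 h per kb (1.93), with all transcripts (0.45) and with merged regions (0.27), the Ccnd3 promoter per kb (0.046, 0.36 and 1.32), and Cdk4 at 96 h per kb (0.69) and with merged regions (0.028). Whatever their size, 12 of 30 window ratios changed sign per kb (Ccnd1, Cdk4, Cdk6 and Cdkn1a at 48 h, Ccnd3, Ccne1, Cdk6, Cdkn1a and Rb1 at 72 h, Ccnd3, Cdk4 and Rb1 at 96 h), 7 in nuclei of 3000 to 10000 counts, 3 binarised and at most 4 under any other alternative. For the nuclei settings the cause was not tested. The merged regions and the last nuclei setting were added after the data had been seen.

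No paired analysis was possible because each time has 1 library. Counting error is the only error measured, animals or preparations add spread of unknown size, and a gene with no called peak has no count here, whatever its reads.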

Other observations

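Nuclei with more non-parenchymal than hepatocyte marker counts, 166 of 3977 at 0 h, had higher levels of all 10 G1 genes than the other nuclei of that library, where 64.4% of all 15505 genes were higher. In the 48, 72 and 96 h libraries 10, 9 and 6 of the 10 were higher in such nuclei, beside 59.9%, 56.0% and 47.4% of all genes. The median log2 ratio between both kinds of nuclei was 0.91, 0.72, 0.59 and 0.35 over the 10 genes at 0, 48, 72 and 96 h and 0.36, 0.22, 0.089 and -0.044 over all genes. Depth was not matched between both kinds of nuclei, and at 0 h the levels of Ccnd2 and Cdkn1a also differed between depth ranges. The part of depth in these gaps was not tested. At 0 h the gap, as a ratio, was widest for Ccnd2, at 119.97 CPM against 20.7 CPM. For Cdkn1a it was 56.8 CPM (37.4 to 82.7) against 25.1 CPM, for Ccnd3 265 CPM (221 to 316) against 127 CPM, for Cdkn1b 108 CPM (80.8 to 142.3) against 53.1 CPM, and for Ccnd1 165 CPM (131 to 206) against 83.5 CPM. For Cdk6 it was 285 CPM (239 to 337) against 225 CPM. For Rb1 it was 229 CPM (188 to 277) against 132 CPM, and for Ccne1 63.1 CPM (42.6 to 90.1) against 34.7 CPM. The intervals overlapped for Ccne2, at 59.98 CPM (40.02 to 86.4) against 45.1 CPM (43.5 to 46.7), and for Cdk4, at 95.8 CPM (70.0 to 127.9) against 75.5 CPM (73.4 to 77.6). In those nuclei the endothelial and the Kupffer and myeloid marker lists summed to 644 and 444 CPM, and the hepatocyte list to 369 CPM against 4920 CPM in the others. The nuclei were picked by counts in these same lists, so the sums follow from that choice and do not identify the cells independently.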
